A study of Canis lupus familiaris with 8 samples.

Results

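Antigen presentation and immunoproteasome genes were examined in peripheral blood mononuclear cells (PBMCs, a blood fraction of lymphocytes and monocytes) of 8 dogs. The 10 genes were taken as a list of symbols: CIITA, CD74, B2M, TAP1, TAP2, TAPBP, NLRC5, PSMB8, PSMB9 and PSMB10. Each stood in 1 row of the 35048 rows of the gene tables, and all 10 were among the 20632 genes that passed the filter on low counts. In RefSeq's annotation of the German Shepherd assembly UU_Cfam_GSD_1.0 no annotated gene overlapped any of the 10, and TAP2, PSMB8, TAP1 and PSMB9 stood next to each other in that order.

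The study asked which genes differ in PBMCs between obese and normal dogs. Of the 5 obese dogs, dog 1 was a Dachshund, dog 2 a Chihuahua, dogs 3 and 4 were Labrador retrievers and dog 5 was a Welsh Corgi, while all 3 normal dogs were Beagles. No drug, diet, transgene or time point is named for either group, and the labels used here give no age or sex. No breed occurred in both groups, so body condition and breed cannot be told apart in any value below. The libraries count each transcript from a tag near its poly(A) tail, with totals of 10264202 to 14910982 counts, and expression is given as CPM (counts scaled to a common library size by TMM). In bulk RNA, fewer cells of a type and less RNA per cell cannot be told apart.

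Cells show peptides to T cells on 2 kinds of surface molecule. Class I molecules are a heavy chain paired with B2M, and they carry peptides that the proteasome cuts from cytosolic proteins and that the TAP transporter moves into the endoplasmic reticulum. Interferon-gamma makes cells replace 3 catalytic subunits of the proteasome core by PSMB8, PSMB9 and PSMB10, which gives the immunoproteasome. Class II molecules carry peptides from the endosome and are made by B cells, monocytes, dendritic cells and, in dogs, many resting T cells. They assemble on CD74, the invariant chain. CIITA and NLRC5 are related regulators that switch on the promoters of class II and class I genes, respectively.

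None of the 10 genes passed the threshold between obese and normal dogs (0 of 10 at an adjusted p under 0.05, edgeR's quasi-likelihood test, where 0.233% of all genes tested passed). On counts simulated with the spread of these data, the same test called 2% of 2-fold and 32% of 4-fold changes. The largest difference of the 10 was 2.49-fold (CIITA), so not passing does not show that a gene was unchanged. At an unadjusted p under 0.05 there were 3 of 10, CIITA, CD74 and PSMB8, beside 15.7% of all genes. With limma-voom and library quality weights the same 3 passed the adjusted threshold, in a fit where 19.0% of all genes passed. The class II genes CIITA and CD74 had the largest positive differences of the 10, and PSMB8, a subunit of the immunoproteasome, had the largest negative one. The values of the 2 groups did not overlap for CD74, which was higher in every obese dog, and for PSMB8, which was lower in every obese dog. These were 2 of 10 genes, where 10.9% of all genes tested had groups without overlap, 5.75% with the obese dogs higher and 5.16% with them lower. The median log2 fold change, obese minus normal, was −0.22 over the 10 genes and 0.09 over all genes tested.

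**Figure D1:**
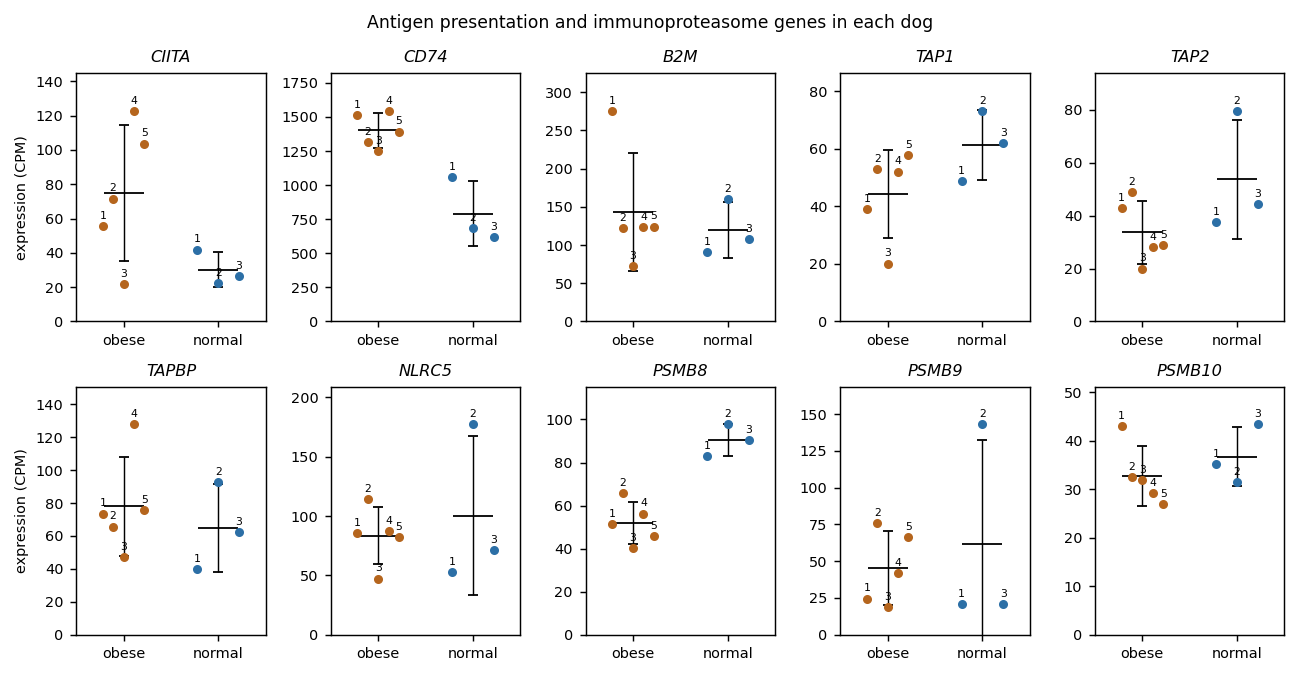
Expression in CPM (vertical axes from 0) of the 10 genes in each dog, with the dog's number above its point, obese dogs in brown and normal dogs in blue, and mean and SD as bars (the lower end of the SD bar of PSMB9 in normal dogs lies below 0 and is not drawn). CD74 and PSMB8 separate the groups, obese dog 3 is the lowest of all dogs in 7 of the 10 genes, and normal dog 2 is the highest in 5. Some of these ranks rest on gaps smaller than the counting error.

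The libraries differed in more than body condition. Obese dog 3 had a summed level of 7831 CPM over the 10 neutrophil markers tested, against 366 to 1235 CPM in the other obese dogs and 1954 to 7830 CPM in normal dogs. The 7830 CPM were in normal dog 2, which thus had nearly the level of obese dog 3. Obese dog 3 had 1185 CPM over 7 erythroid markers, against 8.46 to 31.7 CPM in the other obese dogs. Plasma cell markers lay mostly lower in obese dogs, with 8 of 9 negative, a median log2 fold change of −2.18 and sums of 167 to 278 CPM against 356 to 1307 CPM in normal dogs, without overlap. Of these markers 6 lay below every normal dog, where 5.16% of all genes did, and 1 passed the threshold. It was TNFRSF17, a survival receptor of plasma cells, at 0.227 to 1.11 CPM in obese against 8.96 to 16.9 CPM in normal dogs (adjusted p = 0.0228, edgeR). All 5 platelet markers tested were positive and none passed, with sums of 66.3 to 1473 CPM in obese against 9.18 to 33.3 CPM in normal dogs, and 4 of them lay above every normal dog, where 5.75% of all genes did. The part of plasma cell and platelet RNA in the differences of the 10 genes was not tested. The 28 interferon-stimulated genes summed to 7110 CPM in normal dog 2, 2329 CPM in normal dog 3, and 395 to 468 CPM in normal dog 1 and the obese dogs. T cell, B cell and monocyte markers were present in every library, with CD3E at 49.2 to 179 CPM, CD79A at 1.6 to 7.0 CPM and CD14 at 7.19 to 32.6 CPM.

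Values per dog are given in the order of obese dogs 1 to 5 and normal dogs 1 to 3. CIITA, the regulator without which class II genes stay off, had 55.6, 71.7, 21.7, 123 and 104 CPM in obese dogs 1 to 5 and 41.8, 22.5 and 26.3 CPM in normal dogs 1 to 3. Obese dog 3 was the lowest dog of all, and the other 4 obese dogs lay above every normal dog. The obese mean was 75.0 ± 39.8 CPM (SD, n = 5) and the normal mean 30.2 ± 10.3 CPM (SD, n = 3), a log2 fold change of 1.31 (standard error 0.498) with a 95% interval of 0.21 to 2.42 (adjusted p = 0.255, edgeR). With obese dog 3 left out, CIITA passed at a log2 fold change of 1.52 (adjusted p = 0.0239, edgeR), in a fit where 8.28% of all genes passed. It was lower in other sets of dogs, with 1.06 without obese dog 4 (adjusted p = 0.404, edgeR) and 0.70 without obese dogs 4 and 5 (adjusted p = 0.591, edgeR), the latter a set of 6 dogs added after seeing the data.

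CD74, which fills the peptide groove of new class II molecules and guides them to the endosome, was the most abundant of the 10 genes. It had 1514, 1313, 1249, 1543 and 1393 CPM in obese dogs against 1061, 687 and 619 CPM in normal dogs. The lowest obese dog, dog 3, lay above the highest normal dog, dog 1, and the obese dogs spread little around their mean of 1402 ± 126 CPM (SD, n = 5), against 789 ± 238 CPM (SD, n = 3). CD74 had a log2 fold change of 0.83 with a standard error of 0.265, or 1.78-fold, with an interval of 0.24 to 1.42 (adjusted p = 0.199, edgeR). CD74 did not fall with CIITA in obese dog 3, where CIITA was at 21.7 CPM and CD74 at 1249 CPM. Normal dog 2 had a similar level of CIITA, 22.5 CPM, and 687 CPM of CD74.

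The class II chains and peptide editors in the tables lay in the same direction, with 6 of 6 positive, a median log2 fold change of 0.80, and none past the threshold. DLA-DRA, the alpha chain of the DR molecule, had 40.8 ± 5.94 CPM (SD, n = 5) in obese dogs against 22.5 ± 8.90 CPM (SD, n = 3) in normal dogs, and its groups did not overlap. HLA-DRB1, the name in the tables for a DR beta chain, had 1545 ± 423 against 920 ± 245 CPM, with obese dog 3 (891 CPM) among the normal dogs. DLA-DMB, a chain of the DM molecule that trades CD74 fragments for peptides, had 27.6 ± 10.4 against 12.5 ± 4.41 CPM. DLA-DOA, a chain of the DO molecule that restrains DM, had 26.0 ± 15.4 against 14.1 ± 3.35 CPM. Its higher mean came from obese dogs 3 and 4, at 48.5 and 35.7 CPM. Obese dogs 1, 2 and 5 lay within the normal range of 11.8 to 17.9 CPM. The adjusted p-values of the named genes ran from 0.244 for DLA-DRA to 0.385 for DLA-DOA (edgeR). Class II chains differ in sequence between dogs and breeds, and how far this set the share of reads assigned to each was not tested.

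Levels of the cells that carry class II were read from their markers in the same libraries. Of 10 B cell markers 8 were positive and none passed, with sums of 61.9 to 293 CPM in obese dogs against 61.3 to 124 CPM in normal dogs. The sums of obese dogs 4 and 5, 293 and 167 CPM, lay above every normal dog, and obese dog 4 also had the highest CIITA and CD74. Obese dogs 1, 2 and 3 had B cell sums of 121, 100 and 61.9 CPM, within the range of normal dogs. Their CD74 was at 1514, 1313 and 1249 CPM, above every normal dog. Of 10 monocyte markers 5 were positive and none passed, with sums of 905 to 2039 CPM in obese dogs against 1897 to 3179 CPM in normal dogs. Of 9 dendritic cell markers 5 were positive and none passed, with sums of 158 to 326 CPM in obese dogs and 295 to 476 CPM in normal dogs. These sums rest mostly on a few genes that went different ways. TCF4 and IRF4, the latter also a plasma cell marker, averaged 79.7 against 138 CPM and 60.8 against 167 CPM. CCR7 and FCER1A lay above every normal dog, where 5.75% of all genes did, and averaged 66.2 against 27.3 CPM and 6.11 against 1.43 CPM. All 12 T cell markers were positive and none passed, with sums of 570 to 2058 CPM in obese dogs against 392 to 564 CPM in normal dogs, which did not overlap. No marker of these 4 lists was at 0 in all dogs, and the B cell marker MS4A1 and the dendritic cell marker XCR1 were at 0 in at least 1 dog. The part of these cell types in the class II values was not tested.

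Genes that prepare class II peptides and the factors that bind beside CIITA showed no member past the threshold. Of 9 genes of class II processing 8 were positive (median 0.38), and the exception was CTSB, an endosomal cysteine protease, with 153 ± 61.5 CPM in obese dogs against 301 ± 106 CPM in normal dogs (adjusted p = 0.228, edgeR). MARCHF8, a ligase that removes class II from the surface, had 121 ± 31.1 against 84.4 ± 21.4 CPM. SPPL2A, which clears the last fragment of CD74 from membranes, had 71.9 ± 19.9 against 50.8 ± 1.46 CPM, and the protease LGMN had 77.5 ± 30.4 against 55.0 ± 10.5 CPM. The 7 factors of the promoter module shared by class I and class II genes had a median of 0.13, and their smallest adjusted p was 0.381, for CREB1 (edgeR). RFX5, the DNA-binding subunit of the RFX complex, had 24.1 ± 7.78 against 15.98 ± 3.53 CPM.

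On the class I side, NLRC5 had 85.9, 114, 47.4, 87.4 and 82.2 CPM in obese dogs against 52.7, 177 and 71.3 CPM in normal dogs. Normal dog 2 was highest and obese dog 3 lowest, and the other 6 dogs lay between them with the groups mixed. NLRC5 had a log2 fold change of −0.27 with a standard error of 0.402 (adjusted p = 0.788, edgeR), with an interval of −1.16 to 0.63. Without normal dog 2 it was 0.40, so 1 normal dog set its sign, and without normal dog 1 it was −0.56.

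B2M, the light chain of every class I molecule, had 275, 122, 72.7, 124 and 124 CPM in obese dogs against 90.4, 161 and 107 CPM in normal dogs. Obese dog 1 stood above all other dogs and the rest of the 2 groups were mixed. B2M had a log2 fold change of 0.26 with a standard error of 0.400 (adjusted p = 0.788, edgeR), and −0.11 without obese dog 1 and 0.51 without normal dog 2. In obese dog 1 the 5 platelet markers tested summed to 1473 CPM, against 66.3 to 618 CPM in the other obese and 9.18 to 33.3 CPM in normal dogs. The part of platelet RNA in the B2M value was not tested. B2M averaged 144 CPM in obese and 119 CPM in normal dogs, well below the heavy chains DLA88 and DLA-64 given below. The share of B2M reads assigned to its row was not tested.

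Among heavy chains, DLA-64 had 1687 ± 551 CPM (SD, n = 5) in obese dogs against 2270 ± 568 CPM (SD, n = 3) in normal dogs, and DLA-12 had 423 ± 173 against 293 ± 70.9 CPM. DLA88, DLA-64 and DLA-12 are close copies of each other, so single values are uncertain, and DLA88 and DLA-64 moved together (r = 0.947 over 8 dogs, a description). Of the 6 genes of the heavy chain list 4 were positive (median 0.66), and none passed. The 2 negative ones were the most abundant, DLA-64 at a log2 fold change of −0.43 and DLA88 at −0.44. DLA88 had 1474 ± 529 CPM in obese dogs against 2000 ± 715 CPM in normal dogs. FCGRT, a class I relative that carries antibodies and albumin instead of peptides, had 18.4 ± 6.53 against 6.67 ± 4.07 CPM (adjusted p = 0.209, edgeR). DLA-79 had the lowest level of the list, with 2.53 ± 2.10 against 0.983 ± 0.642 CPM.

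The peptide transporter is a pair of proteins, TAP1 and TAP2. TAP1 had 38.9, 53.0, 20.1, 52.0 and 57.9 CPM in obese dogs against 48.9, 73.0 and 61.9 CPM in normal dogs. TAP2 had 42.8, 48.9, 19.96, 28.0 and 28.7 CPM in obese dogs against 37.5, 79.5 and 44.3 CPM in normal dogs. Obese dog 3 was lowest and normal dog 2 highest in both genes, and the groups overlapped in both. The log2 fold change was −0.46 for TAP1 (standard error 0.333, interval −1.20 to 0.27, adjusted p = 0.531, edgeR). For TAP2 it was −0.67 (standard error 0.352, interval −1.45 to 0.11, adjusted p = 0.385, edgeR), and −0.31 without normal dog 2.

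TAPBP, or tapasin, which holds an empty class I molecule beside the transporter, had 73.6, 65.7, 47.3, 128 and 75.5 CPM in obese dogs against 39.7, 92.8 and 62.6 CPM in normal dogs. Its highest dog was obese dog 4 and its lowest normal dog 1, and its log2 fold change was 0.26 (standard error 0.363, adjusted p = 0.765, edgeR). Single dogs moved it, to 0.0078 without obese dog 4, 0.019 without normal dog 1 and 0.58 without normal dog 2. TAPBPL, a related protein that edits class I peptides without the transporter, had 31.0 ± 7.83 CPM in obese dogs against 17.1 ± 0.565 CPM in normal dogs. The groups did not overlap, but TAPBPL did not pass the threshold (log2 fold change 0.86, adjusted p = 0.197, edgeR).

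The other genes of class I loading and trimming were mixed, with 6 of 11 negative, a median of −0.30 and none past the threshold. PDIA3, a disulphide isomerase of the loading complex, had 48.3 ± 8.85 CPM in obese dogs against 71.3 ± 11.8 CPM in normal dogs, without overlap (adjusted p = 0.291, edgeR). TPP2, a cytosolic peptidase that cuts long proteasome products, had 38.2 ± 12.5 against 66.2 ± 2.38 CPM, also without overlap (adjusted p = 0.247, edgeR). The chaperone CALR had 185 ± 21.1 against 251 ± 54.9 CPM (adjusted p = 0.372, edgeR).

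PSMB8, which takes the place of PSMB5 in the immunoproteasome, had 51.3, 65.7, 40.3, 56.3 and 45.7 CPM in obese dogs against 83.1, 97.7 and 90.4 CPM in normal dogs. All 5 obese dogs lay below all 3 normal dogs, with a gap between 65.7 and 83.1 CPM and little spread within the groups. Obese dogs averaged 51.8 ± 9.81 CPM (SD, n = 5) and normal dogs 90.4 ± 7.31 CPM (SD, n = 3). Its log2 fold change was −0.80 with a standard error of 0.224, or 1.74-fold lower, with an interval of −1.30 to −0.31 (adjusted p = 0.154, edgeR). In the same dogs the plasma cell, platelet and T cell sums also parted the groups, as given above. The DESeq2 Wald test called PSMB8 (adjusted p = 0.0428), where it called 5.07% of all genes.

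PSMB9, which takes the place of PSMB6 and lies beside TAP1, varied most among the 10 genes in normal dogs relative to its mean. It had 24.5, 75.9, 18.6, 42.1 and 66.5 CPM in obese dogs against 20.7, 143 and 20.8 CPM in normal dogs. Normal dog 2 stood above every other dog, and normal dogs 1 and 3 lay with obese dogs 1 and 3 at the low end. The 95% Poisson intervals were 135 to 151 CPM in normal dog 2 and 18.6 to 23.2 CPM in normal dog 3, for counting error only. The log2 fold change was −0.43 with a standard error of 0.703 (adjusted p = 0.806, edgeR), and 1.10 without normal dog 2. The 2 dogs with the most PSMB9, normal dog 2 and obese dog 2, also had the most NLRC5, and the 3 dogs with the least, obese dog 3 and normal dogs 1 and 3, also had the least NLRC5.

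PSMB10, which takes the place of PSMB7, varied little, with 43.0, 32.5, 31.9, 29.2 and 26.9 CPM in obese dogs against 35.2, 31.4 and 43.4 CPM in normal dogs. The groups overlapped throughout, and the log2 fold change was −0.17 (standard error 0.245, interval −0.71 to 0.38, adjusted p = 0.781, edgeR). Leaving out normal dog 3 gave −0.055, and leaving out normal dog 2 gave −0.30. The 3 immunoproteasome subunits therefore ranked the dogs differently, since PSMB8 parted the groups, PSMB9 parted normal dog 2 from the other normal dogs, and PSMB10 did neither.

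**Figure D2:**
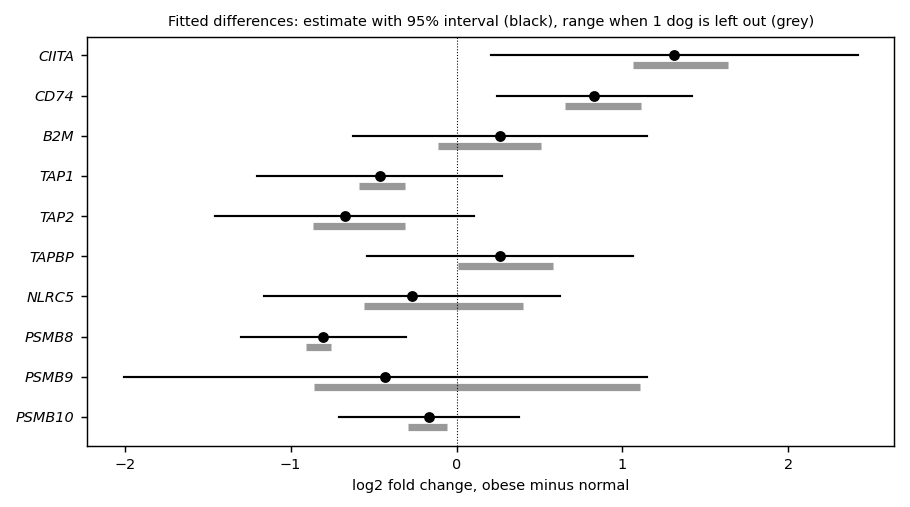
Log2 fold change, obese minus normal, of each of the 10 genes from edgeR (point) with its 95% interval (black line) and its range when each of the 8 dogs was left out in turn (grey bar). The intervals of CIITA, CD74 and PSMB8 do not reach 0, the grey bars of B2M, NLRC5 and PSMB9 cross 0, and no gene passed the threshold over all genes tested.

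Each immunoproteasome gene was set against the constitutive subunit that it replaces, as a ratio of counts within a library, which does not depend on how libraries are scaled. PSMB8/PSMB5 was 1.25, 2.35, 2.95, 1.93 and 1.61 in obese dogs against 2.77, 4.59 and 4.04 in normal dogs. The groups overlapped only in that obese dog 3 lay above normal dog 1. The mean log2 ratio was 0.95 ± 0.478 (SD, n = 5) in obese dogs against 1.89 ± 0.380 (SD, n = 3) in normal dogs. The difference of −0.94 had p = 0.0536 in an exact two-sided permutation test over all 56 splits, where the smallest possible p was 0.0179, and an adjusted p = 0.161 over the 3 ratios.

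PSMB9/PSMB6 was 0.547, 2.43, 2.18, 1.24 and 2.16 in obese dogs against 0.438, 7.01 and 0.607 in normal dogs. Obese dog 1 and normal dogs 1 and 3 had less PSMB9 than PSMB6 and the other 5 dogs had more. The difference in mean log2 ratio was 0.29 (exact permutation p = 0.804, adjusted p = 0.982). PSMB10/PSMB7 was 0.165 to 0.290 in obese dogs against 0.217 to 0.273 in normal dogs, with a difference of 0.01 (exact permutation p = 0.982, adjusted p = 0.982).

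The 3 immunoproteasome genes together took 33.6, 46.4, 29.6, 41.7 and 47.7% of the counts of the 6 catalytic subunit genes in the obese dogs, and 37.6, 59.3 and 41.7% in normal dogs. The group means of 39.8 ± 7.91% (SD, n = 5) and 46.2 ± 11.6% (SD, n = 3) differed by less than the spread between dogs. Normal dog 2 was highest (95% exact binomial interval 57.8 to 60.8%) and obese dog 3 lowest (27.9 to 31.4%).

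**Figure D3:**
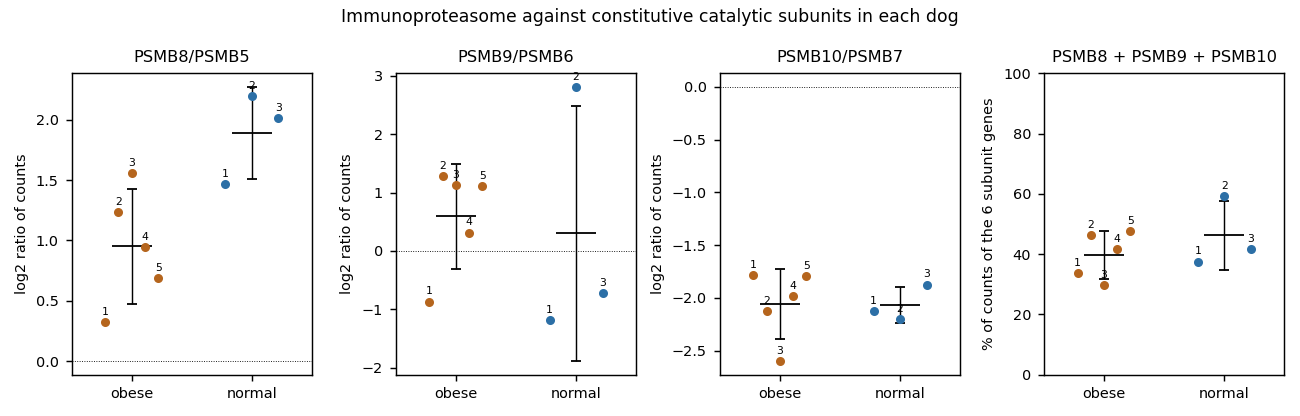
Log2 ratio of the counts of PSMB8 to PSMB5, PSMB9 to PSMB6 and PSMB10 to PSMB7 (dotted line at equal counts) and percent of the counts of these 6 genes that came from the 3 immunoproteasome genes (last panel) in each dog, with mean and SD as bars. PSMB8/PSMB5 is below every normal dog in obese dogs 1, 2, 4 and 5, and normal dog 2 stands apart in PSMB9/PSMB6.

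The constitutive subunits themselves had small fitted differences with wide intervals. PSMB5, PSMB6 and PSMB7 had log2 fold changes of 0.19 (−0.56 to 0.94), −0.19 (−1.21 to 0.83) and −0.14 (−0.71 to 0.43). Obese dog 3 had the lowest PSMB5 and PSMB6 of all dogs, at 13.6 and 8.51 CPM, and the highest PSMB7, at 193 CPM. The low PSMB5 and PSMB6 are the denominators of its PSMB8/PSMB5 of 2.95 and PSMB9/PSMB6 of 2.18. Among proteasome activators, PSME1, PSME2 and PSME4 were lower in every obese dog than in every normal dog, and none of them passed. PSME4, a single-chain activator of the proteasome core, had 140 ± 28.7 CPM (SD, n = 5) in obese dogs against 289 ± 83.8 CPM (SD, n = 3) in normal dogs (a log2 fold change of −1.04 with adjusted p = 0.122, edgeR). PSME1 and PSME2, the subunits of the interferon-inducible activator ring, had 65.2 ± 7.27 against 108 ± 26.4 CPM and 46.4 ± 16.1 against 76.9 ± 8.41 CPM (adjusted p = 0.191 and 0.283, edgeR). PSME3, of the nuclear activator, had a log2 fold change of 0.26 and its groups overlapped. PSMG4, an assembly chaperone, had 41.8 ± 5.59 against 28.2 ± 7.02 CPM. Of the 11 genes of this list, 6 were negative, 3 lay without overlap below and 1 above the normal dogs, where 5.16% and 5.75% of all genes did, and none passed the threshold. The plasma cell, platelet and T cell sums given above part the same groups.

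Inputs of interferon signalling were also read from a list. STAT2, which acts with IRF9 in the complex driven by type I interferon, had 38.5 ± 11.9 CPM (SD, n = 5) in obese dogs against 114 ± 79.2 CPM (SD, n = 3) in normal dogs (adjusted p = 0.133, edgeR). Normal dog 2 was at 205 CPM, and the groups did not overlap, with at most 53.6 CPM in obese and at least 62.6 CPM in normal dogs. IRF9 had 12.3 ± 3.43 against 26.5 ± 12.5 CPM (adjusted p = 0.216, edgeR). IFNGR1, the ligand-binding chain of the interferon-gamma receptor, had 44.0 ± 10.6 against 82.4 ± 20.7 CPM, without overlap (adjusted p = 0.179, edgeR). IRF8, a factor of B cells, monocytes and dendritic cells, lay the other way, with 97.5 ± 45.3 against 26.9 ± 15.1 CPM, also without overlap (adjusted p = 0.136, edgeR). Of the 13 genes of this list 7 were negative, the median was −0.27 and none passed.

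The 28 interferon-stimulated genes had 27 negative members and a median of −2.77, none past the threshold and 24 with an unadjusted p under 0.05, beside 15.7% of all genes. Their level was high in normal dogs 2 and 3 and near that of the obese dogs in normal dog 1, as given above. In normal dog 2, 5 of the 8 class I and immunoproteasome genes, TAP1, TAP2, NLRC5, PSMB8 and PSMB9, had their highest values of all dogs. The other three did not: B2M and TAPBP were highest in obese dogs 1 and 4, and PSMB10 was lower in normal dog 2 than in the other normal dogs. In normal dog 3, TAP1 and PSMB8 were at 61.9 and 90.4 CPM, the second highest of the 8 dogs, while PSMB9 was at 20.8 CPM and NLRC5 at 71.3 CPM, in each case above only obese dog 3 and normal dog 1. The 9 guanylate-binding and other interferon-gamma targets had a median of −0.52, with 7 of 9 negative and none past the threshold. WARS1, a tRNA synthetase induced by interferon-gamma, had 60.9 ± 15.1 against 97.9 ± 36.3 CPM (adjusted p = 0.294, edgeR). The part of the interferon response in the class I values was not tested.

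**Figure D4:**
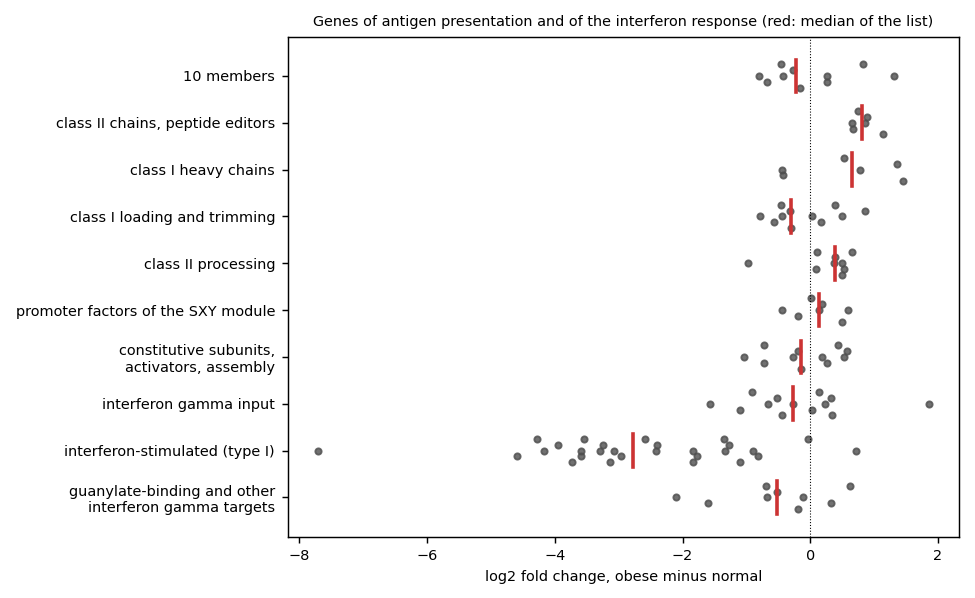
Log2 fold change, obese minus normal, of every tested gene of the 10 members and of 9 lists of antigen presentation and interferon genes (grey points, 1 gene each, vertical scatter for display only), with the median of each list as a red bar. The 6 class II chains and peptide editors all lie above 0 with a median of 0.80, and 27 of 28 interferon-stimulated genes lie below 0 with a median of −2.77.

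**Figure D5:**
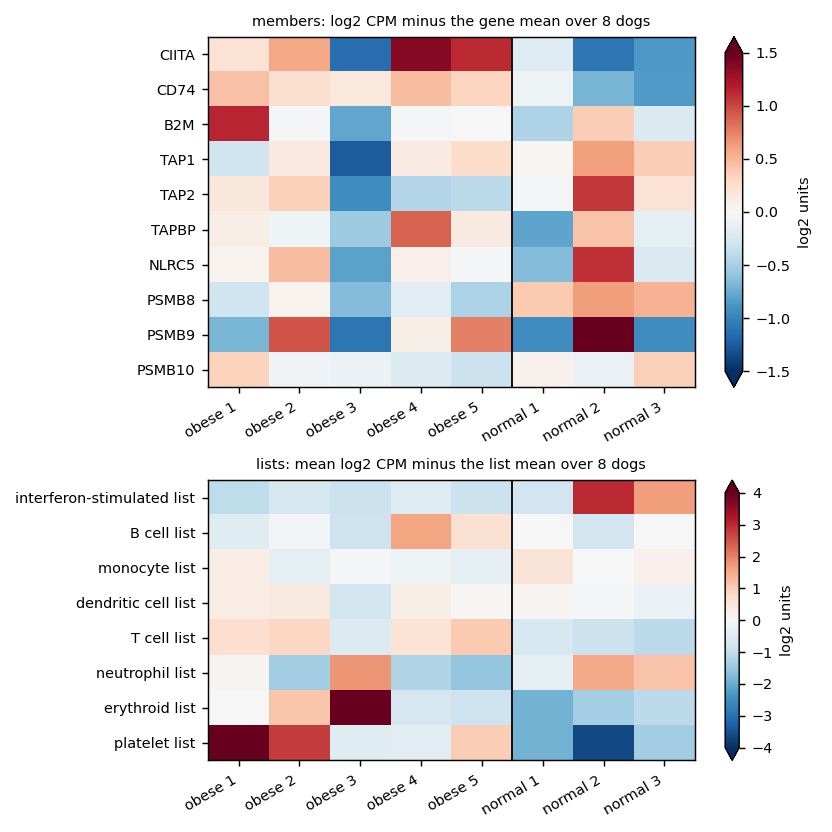
Log2 CPM of the 10 genes in each dog minus the gene's mean over the 8 dogs (upper map), and the mean log2 CPM of 8 lists minus the list's mean over the dogs (lower map), in log2 units, with colours that saturate at the ends of each scale and a line between obese and normal dogs. Obese dog 3 is the lowest dog in 7 of the 10 genes and has high neutrophil and erythroid lists. Normal dog 2 is the highest in TAP1, TAP2, NLRC5, PSMB8 and PSMB9 and has high neutrophil and interferon-stimulated lists. Some of these ranks rest on gaps smaller than the counting error.

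Genes whose levels over the 8 dogs were most like the mean of the class II genes, CIITA and CD74, were HLA-DRB1 (Pearson r = 0.985 over 8 dogs), the diacylglycerol kinase DGKA (r = 0.980), POGLUT1 (r = 0.979), COQ2 (r = 0.978), TAB1 (r = 0.977) and ATAD3A (r = 0.974). Most like the mean of the 8 class I and immunoproteasome genes were WDR25 (r = 0.970), MALT1 (r = 0.936), ZFAT (r = 0.932), SRGAP2 (r = 0.928), IL15RA (r = 0.920) and CYTH1 (r = 0.900). These values describe likeness among 8239 named genes of at least 10 CPM, whose levels share the libraries and their cell makeup. Of those genes 216 had r above 0.9 with the class II mean and 6 with the class I mean. No member of the interferon lists was among the 6 genes closest to the class I mean. That ranking does not test the part of the interferon response in the class I values.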

How the data were processed

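RNA of PBMCs from 5 obese and 3 normal dogs was extracted with Trizol and made into Lexogen QuantSeq 3′ tag libraries, per the labels' protocols. The authors deposited whole-number counts per gene symbol, 1 table per dog, not normalized. Bowtie2 and bedtools are named in the submitters' processing notes. No source used here names versions, the build, the annotation or whether strand was used. Groups came from the labels, which name separate dogs. For a repeated symbol the row with the highest mean was kept. The 10 genes, the lists and the markers were chosen with earlier results of these data known.

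Counts were fitted in R 4.3.3 with edgeR 4.0.16 (filterByExpr, TMM, robust quasi-likelihood test), with Benjamini-Hochberg adjustment over all 20632 genes at 0.05. This step was tested on simulated data, where 2, 32, 82 and 94% of 2-, 4-, 8- and 16-fold changes were called, with 7 false calls. A standard error is the absolute log2 fold change over the square root of F. Ratios used a pseudocount of 0.5. Intervals of counts cover counting error only, since no molecular identifiers were counted. DESeq2 1.42.0, limma 3.58.1 and other scalings, filters and sets of dogs were alternatives. Named were the 10 genes, genes of each list past the threshold and up to 4 with the smallest p, the 2 most abundant genes per marker list and the 6 genes most like each class mean. TNFRSF17, CD3E, CD79A, CD14, MS4A1, XCR1, CCR7, FCER1A, DLA88, PSME3 and PSMB5, PSMB6 and PSMB7 are named besides, after their values were seen. VCAN and other abundant markers enter only through their sums.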

Additional observations from a re-analysis of the deposited data

Results flagged for a closer look

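B2M in obese dog 1 lay far from the other obese dogs, at 275 CPM against 72.7 to 124 CPM. The gap to the nearest dog was 0.746 of the range of the group, above Dixon's critical value of 0.71 for 5 samples. It was 1 of 13 sets of obese values examined this way, and chance gives about 1 in 20.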

How the results depend on the processing

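Over 16 alternatives per gene, CIITA, CD74, TAP1, TAP2, PSMB8 and PSMB10 kept their sign in all of them. Values of the 10 genes changed sign in 7 cases: B2M to −0.11 without obese dog 1 (range −0.11 to 0.51 when 1 dog was left out), NLRC5 to 0.40 without normal dog 2 (range −0.56 to 0.40) and PSMB9 to 1.10 without normal dog 2 (range −0.86 to 1.10), NLRC5 and PSMB9 to 0.20 and 0.85 with limma-voom quality weights, and TAPBP to −0.018 with the replicate block and −0.081 in the same 6 dogs without it, a fit added after seeing the data. CIITA fell from 1.31 to 0.59 with the replicate block (adjusted p = 0.774) and to 0.70 in the same 6 dogs without it (edgeR). The cause was not tested. The number of the 10 genes past the threshold, 0, became 3 with limma-voom weights (CIITA, CD74 and PSMB8, where 19.0% of all genes passed), 1 with the DESeq2 Wald test, and 0 to 1 when 1 dog was left out (CIITA without obese dog 3). Without obese dog 3 PSMB8 had an adjusted p = 0.0501 (edgeR).

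Over all genes 10 were higher and 38 lower. The counts were 612 and 434 with the DESeq2 Wald test, 1881 and 2043 with limma-voom weights, 0 to 661 and 2 to 1023 when 1 dog was left out (the highest without obese dog 3), and 0 and 0 with the replicate block, where the fit of the same 6 dogs without the block also gave 0 and 0. The dogs share only a number: the deviations of dogs of equal number correlated at −0.03, −0.21 and 0.01. The PSMB8/PSMB5 difference kept its sign. That of PSMB9/PSMB6 ran from −0.45 to 1.55 (without normal dogs 1 and 2, each in turn) and that of PSMB10/PSMB7 from −0.058 to 0.14 when 1 dog was left out, and the last was −0.10 with the replicate block. Upper-quartile scaling moved the median of all genes from 0.09 to −0.03 and changed no sign of the 10 genes.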
